A study of Mus musculus with 10 samples.

Results

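Lgr6, a receptor for the secreted R-spondin proteins, was followed through 10 RNA-seq libraries of mouse left atria together with 7 genes of the same pathway, which makes 8 of the 37583 gene rows in each count table. The other genes were the related receptors Lgr4 and Lgr5, the ligands Rspo1 and Rspo3, the ubiquitin ligases Znrf3 and Rnf43, and the Wnt feedback gene Axin2. Members were found by matching Ensembl identifiers to these symbols. Lgr6 was chosen by its measured values, a lower level in KO than in WT libraries and not in IBR against CTL libraries, so its differences in both comparisons are given as a description with no test.

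The 4 groups all came from adult mice. KO denotes a cardiac knockout of Csk, with libraries KO26 and KO337, and WT denotes untreated wild-type mice, with libraries WT35 and WT338. IBR denotes mice given ibrutinib, a drug that inhibits Bruton's tyrosine kinase, in 3 libraries, and CTL denotes mice given vehicle, in 3 libraries. The Cre line or other means of deletion, the dose, the duration, the sex, the strain and any pooling of animals are not stated in the sources used. The labels do not tie each library to an animal of its own, so the p-values describe differences among libraries that may be technical.

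R-spondins are secreted proteins that bind Lgr4, Lgr5 or Lgr6 and draw the membrane ligases Znrf3 and Rnf43 away from the cell surface. Both ligases otherwise mark Frizzled receptors for removal, so R-spondins raise the response of a cell to Wnt proteins. Axin2, Znrf3 and Rnf43 are themselves induced by Wnt signalling through beta-catenin in many tissues. In mouse, Lgr5 is best known as a marker of intestinal stem cells, Lgr6 as a marker of stem cells in skin, and Rspo3 as an organiser of coronary vessel growth in the embryonic heart.

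The start regions of Lgr6 and Lgr4 are shown because the results turn on these receptors, the only ones of the family with many reads in the atria. Each runs from 250 bases before to 50 bases after the transcription start in RefSeq on GRCm38.p6, written on the strand of the gene. Lgr6 lies on chromosome 1 (chr1:135105227-135105526, minus strand) and Lgr4 on chromosome 2 (chr2:109917397-109917696, plus strand). Capitals mark matches to the E-box CANNTG in Lgr6 and to the CCAAT box CCAAT in Lgr4.
Lgr6: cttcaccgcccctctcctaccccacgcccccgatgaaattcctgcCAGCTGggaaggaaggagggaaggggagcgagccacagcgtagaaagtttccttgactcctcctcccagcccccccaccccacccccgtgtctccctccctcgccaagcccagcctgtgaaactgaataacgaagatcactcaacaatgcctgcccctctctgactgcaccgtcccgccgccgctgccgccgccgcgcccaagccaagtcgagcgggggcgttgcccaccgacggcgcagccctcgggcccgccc
Lgr4: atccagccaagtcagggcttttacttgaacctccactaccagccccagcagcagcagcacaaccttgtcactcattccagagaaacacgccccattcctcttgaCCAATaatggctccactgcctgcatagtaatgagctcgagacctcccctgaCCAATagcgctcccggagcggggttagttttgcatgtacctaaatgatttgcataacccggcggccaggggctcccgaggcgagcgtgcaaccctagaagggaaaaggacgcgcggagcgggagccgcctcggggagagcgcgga

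The Lgr6 window held 24 CpG dinucleotides and 67.7% G and C, and the Lgr4 window held 18 CpG and 58.3%, against medians of 7 CpG and 52.7% over 32851 RefSeq start windows. Both strands were searched for 5 motifs, and no base lay in more than one match. The E-box CANNTG occurred in 72.3% of all windows, with 1 match in Lgr6 and none in Lgr4. The CCAAT box, searched as CCAAT, occurred in 37.4% of windows, with 2 matches in Lgr4 and none in Lgr6. Neither window held the TCF and LEF core CTTTGA, found in 16.0% of windows. The GATA motif GATAA, found in 25.4%, and the TATA box TATAAA, found in 13.6%, were absent from both as well.

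The libraries held 14907331 to 19960947 reads on genes, and 15364 genes had enough reads to be tested. Values are in CPM, reads of a gene scaled to a common library total, with library sizes corrected by edgeR's trimmed means (TMM). Csk, the gene named in the KO label, had 24.7 and 35.5 CPM in the libraries labelled KO and 18.2 and 17.8 CPM in WT libraries, so it was not lower under the KO label, and directions for KO below rest on that label. The 8 atrial cardiomyocyte markers summed to 29640 and 17480 CPM in the libraries labelled KO and to 41860 and 40500 CPM in WT libraries, and none was at 0. Summed fibroblast markers were 5438 and 14490 CPM in KO against 5240 and 4748 CPM in WT, and summed macrophage and monocyte markers were 1045 and 2870 CPM in KO against 313 and 305 CPM in WT. KO26 and KO337 thus lay far apart in these sums, with KO337 the farther from WT. In whole tissue, fewer cells of a type and less RNA per cell cannot be told apart.

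Lgr6 had the lowest values of all 10 libraries in both libraries labelled KO. It reached 62.1 CPM in KO26 and 59.0 CPM in KO337, from 1070 and 1304 reads, against 204 CPM in WT35 and 190 CPM in WT338, from 4134 and 3017 reads. The groups did not overlap, and both KO libraries were almost equal. Means were 60.5 ± 2.17 CPM in KO and 197 ± 10.5 CPM in WT (SD, n = 2 each), a log2 difference of -1.70, or 3.25-fold lower.

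In the drug comparison Lgr6 had 161, 190 and 188 CPM in IBR libraries and 204, 172 and 210 CPM in CTL libraries. CTL2 lay between the IBR values, so the groups overlapped. The log2 difference was -0.12, and the difference between the KO and IBR effects was -1.58. WT and CTL libraries, the untreated and vehicle references, had nearly the same mean level of Lgr6 (197 ± 10.5 CPM, n = 2, and 195 ± 20.2 CPM, n = 3).

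**Figure D1:**
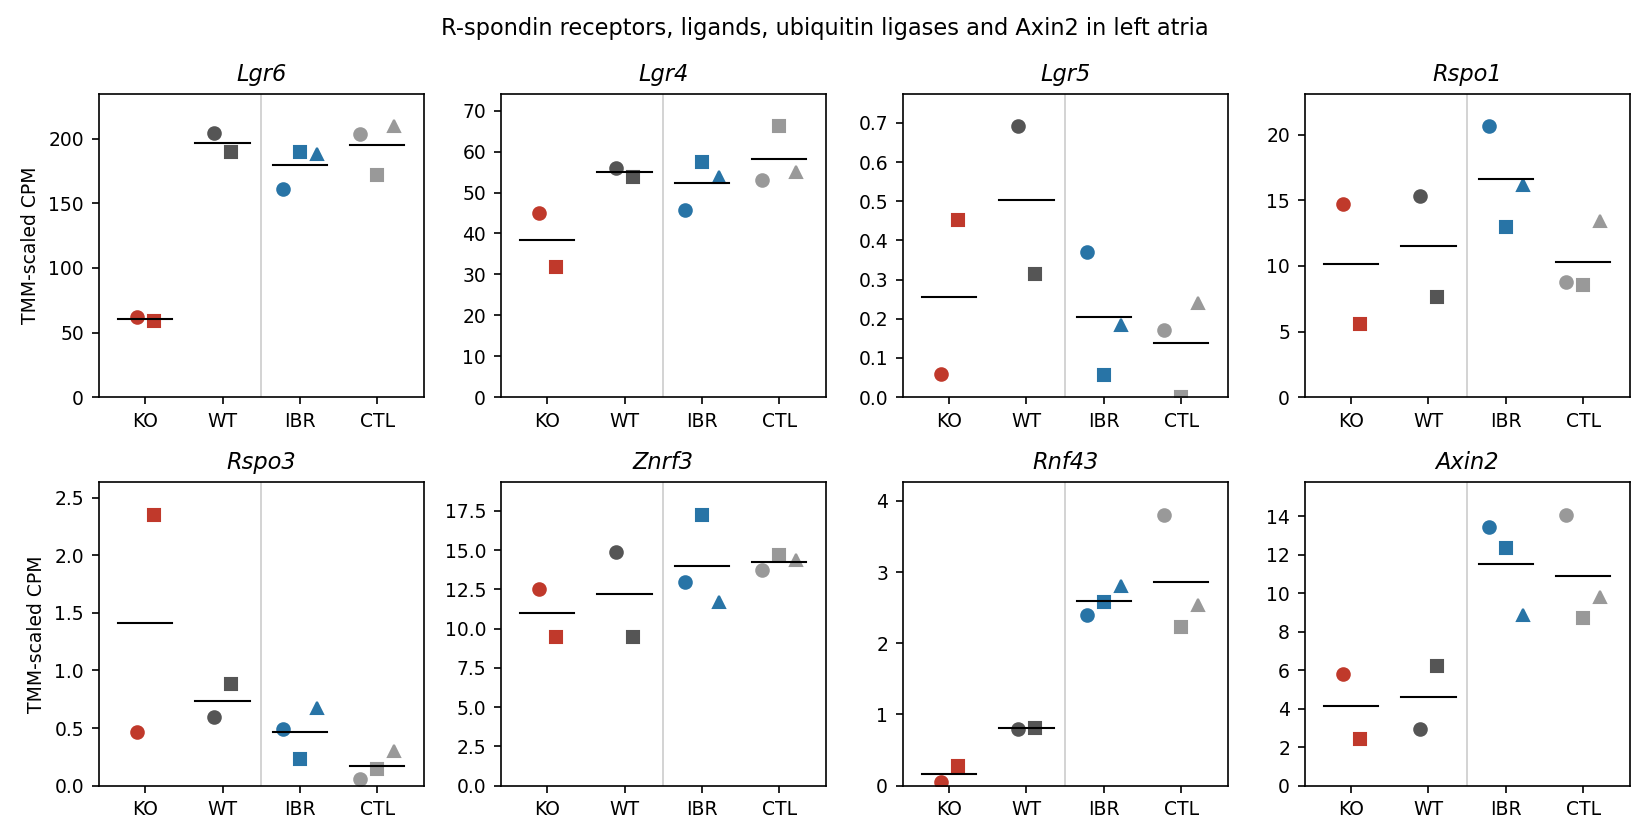
TMM-scaled CPM of the 8 genes in each library (y axis of each panel, from 0), by group on the x axis, with 1 point per library and a line at the group mean. For Lgr6 the KO libraries lie at 62.1 and 59.0 CPM, and all others at 161 CPM or more.

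Per kilobase of exon, Lgr6 had the highest level of the R-spondin genes in every group. It stood at 8.84 ± 0.32 CPM per kb in KO and 28.7 ± 1.53 in WT (SD, n = 2 each), and at 26.2 ± 2.36 in IBR and 28.5 ± 2.95 in CTL (SD, n = 3 each). In WT libraries 90.4% of 14903 genes with a known exon length had a lower level per kb, and in KO libraries 70.2%. Lgr4 came next and Rspo1 after it in all 4 groups, followed by Znrf3 and Axin2, with Rspo3, Rnf43, Rspo2, Lgr5 and Rspo4 below 0.46 CPM per kb. Lgr4 and Rspo1 lay within 1 SD of each other in KO (6.53 ± 1.59 and 5.24 ± 3.35 CPM per kb) and in IBR (8.91 ± 1.02 and 8.57 ± 1.99 CPM per kb). They lay farther apart in WT (9.34 ± 0.28 and 5.93 ± 2.79 CPM per kb) and in CTL (9.88 ± 1.21 and 5.29 ± 1.43 CPM per kb). Znrf3 and Axin2 were not separated beyond their spread in IBR (1.77 ± 0.37 and 2.10 ± 0.43 CPM per kb) or in CTL (1.81 ± 0.06 and 1.98 ± 0.52 CPM per kb).

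The balance between the receptors also differed. Per kb, Lgr6 made up 54.2% and 61.2% of the summed Lgr4, Lgr5 and Lgr6 level in KO26 and KO337, against 75.7% and 75.1% in WT35 and WT338. It made up 75.0%, 73.9% and 75.0% in the IBR libraries and 76.7%, 69.1% and 76.6% in the CTL libraries. The ratio of Lgr6 to Lgr4 per kb was 1.18 and 1.59 in KO libraries and 3.13 and 3.03 in WT libraries, while CTL2 had the lowest ratio outside KO, at 2.23. These shares rest on the Lgr6 values by which the gene was chosen.

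Cardiomyocyte markers were lower in the libraries labelled KO as well, in another proportion than Lgr6. Against the WT mean on the log2 scale, the mean of the 8 markers lay at -0.46 in KO26 and -1.26 in KO337, whereas Lgr6 lay at -1.67 and -1.74. Lgr6 was therefore about equally low in both libraries, although the markers were less reduced in KO26. All 8 markers had negative differences, with a median log2 difference of -0.91; 7 had an unadjusted p under 0.05, where 25.7% of all tested genes had one, and the smallest adjusted p by edgeR's quasi-likelihood test was 0.0832.

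Single markers followed the same split between the libraries. Ryr2, the calcium release channel of the sarcoplasmic reticulum, lay at -0.41 in KO26 and -1.79 in KO337, and the sarcomere protein gene Ttn at -0.48 and -1.48. Nppa, the atrial natriuretic peptide precursor, lay at 0.06 and -0.24. Lgr6 reads per 1000 summed marker reads were 2.09 and 3.37 in KO libraries and 4.88 and 4.68 in WT libraries. They were 4.44, 4.50 and 5.28 in IBR libraries and 4.36, 3.54 and 5.81 in CTL libraries. KO26 was the lowest library on this scale, KO337 came close to CTL2, and all others lay higher. Relative to the geometric mean of the markers, a scale added after the data were seen, the log2 difference of Lgr6 between KO and WT was -0.84.

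**Figure D2:**
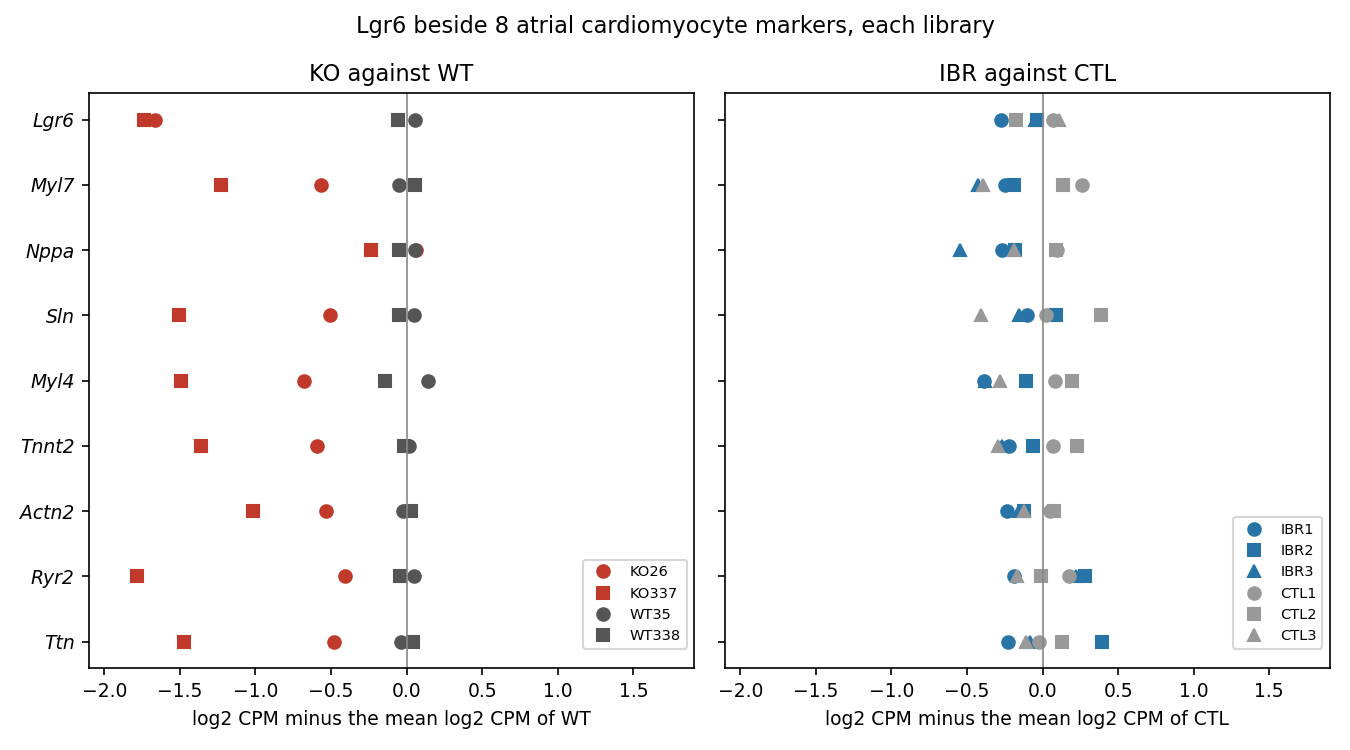
Log2 level of Lgr6 and of the atrial cardiomyocyte markers in each library, as the difference from the mean of WT (for KO and WT) or of CTL (for IBR and CTL) libraries. Lgr6 lies at -1.67 in KO26 and -1.74 in KO337, and the markers run from -0.68 to 0.06 in KO26 and from -1.79 to -0.24 in KO337.

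Lgr4, the receptor through which R-spondins act in many organs, was lower in the libraries labelled KO by less than Lgr6 and did not pass the test. It had 45.1 and 31.8 CPM in KO libraries and 56.1 and 53.8 CPM in WT libraries. Both KO values lay below both WT values, with KO337 the lowest of all libraries. On the log2 scale KO was lower by a difference of -0.52 with an SE of 0.19 (edgeR adjusted p = 0.132). Without KO26 it was -0.81 and without KO337 -0.31, where a single library stands for the group and is assumed to vary like the others. With all KO and WT libraries kept, the edgeR and DESeq2 adjusted p over the alternatives ran from 0.0827 to 0.370.

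In the drug comparison Lgr4 had 45.8, 57.6 and 53.9 CPM in IBR libraries against 53.0, 66.2 and 55.1 CPM in CTL libraries. The groups overlapped, and the log2 difference was -0.15 with an SE of 0.16 (edgeR adjusted p = 0.879).

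Lgr5 was near the limit of detection in every library and was not tested. It had 1 and 10 reads in the KO libraries and 14 and 5 in the WT libraries. The IBR libraries had 6, 1 and 3 reads, against 3, 0 and 4 in the CTL libraries. A count of 3 reads equals 0.15 to 0.201 CPM at these depths before the TMM correction, so the atrial receptor signal of this family came almost wholly from Lgr6 and Lgr4.

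Of the related leucine-rich repeat receptors, the relaxin receptor gene Rxfp1 was the only one with enough reads to test, out of 5. It had 42.5 and 11.2 CPM in KO libraries and 57.5 and 53.5 CPM in WT libraries. KO337 stood far below KO26, and both lay below WT. Its log2 difference of -1.06 had an SE of 0.46 (edgeR adjusted p = 0.185). It was -2.32 without KO26 and -0.41 without KO337. With all KO and WT libraries kept, the adjusted p over the alternatives ran from 0.0914 in DESeq2 to 0.441 in edgeR with only KO and WT libraries.

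Among the ligands, Rspo1 was the one with the highest level. Neither Rspo1 nor Rspo3 was called in either comparison, and Rspo2 and Rspo4 had too few reads to be tested. Rspo1 had 14.7 and 5.57 CPM in KO libraries and 15.3 and 7.66 CPM in WT libraries. One library of each group was about equally high and the other low. KO minus WT gave a log2 difference of -0.19 with an SE of 0.47 (edgeR adjusted p = 0.829). The epicardial and mesothelial markers, summed over 8 genes with none at 0, were 289 and 163 CPM in KO26 and KO337 and 325 and 332 CPM in WT35 and WT338. Single markers went both ways in KO against WT, with 2 positive and 6 negative. Tbx18 alone was called, and it was higher in KO (log2 difference 1.82, edgeR adjusted p = 0.046). Over all genes 2.21% were called.

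In the drug comparison Rspo1 had 20.6, 13.0 and 16.2 CPM in IBR libraries and 8.76, 8.57 and 13.4 CPM in CTL libraries. CTL3 lay just above IBR2, so the groups overlapped narrowly. A log2 difference of 0.69 with an SE of 0.38 did not pass the test (edgeR adjusted p = 0.823). The summed epicardial and mesothelial markers were 413, 301 and 389 CPM in the IBR libraries and 206, 150 and 327 CPM in the CTL libraries. CTL3 was the highest CTL library and IBR2 the lowest IBR library in both Rspo1 and these markers, and the part of the markers in the difference was not tested.

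Rspo3 was scarce, below 1 CPM in every library but one. It had 0.464 and 2.35 CPM in KO libraries and 0.593 and 0.879 CPM in WT libraries. KO337 was highest and KO26 lowest, so the groups overlapped. KO minus WT gave a log2 difference of 0.96 with an SE of 0.76 (edgeR adjusted p = 0.455), and -0.67 without KO337.

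In the drug comparison Rspo3 had 0.493, 0.230 and 0.672 CPM in IBR libraries and 0.0568, 0.144 and 0.302 CPM in CTL libraries. IBR2 lay below CTL3. The log2 difference of 1.43 had an SE of 0.83 (edgeR adjusted p = 0.823). Rspo2, from the ligand list but not tested for its low counts, had 4 and 15 reads in KO against 2 and 0 in WT libraries, and 8, 5 and 3 in IBR against 1, 0 and 1 in CTL libraries. Rspo4 had 1 read in IBR3 and none elsewhere.

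Znrf3, the more abundant of the ligases, differed little between groups. It had 12.5 and 9.46 CPM in KO libraries and 14.9 and 9.49 CPM in WT libraries, and the groups overlapped, with KO337 and WT338 almost equal. The log2 difference was -0.15 with an SE of 0.26 (edgeR adjusted p = 0.744). In the drug comparison it had 12.9, 17.3 and 11.7 CPM in IBR libraries and 13.8, 14.7 and 14.4 CPM in CTL libraries. The IBR values lay on both sides of the CTL values, and the log2 difference was -0.03 with an SE of 0.21 (edgeR adjusted p = 0.986).

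Rnf43 had a larger difference from far fewer reads. It had 0.058 and 0.271 CPM in KO libraries, from 1 and 6 reads, and 0.791 and 0.817 CPM in WT libraries, from 16 and 13 reads. The groups did not overlap. With a log2 difference of -2.16 and an SE of 0.58 it did not pass (edgeR adjusted p = 0.0731). It passed in DESeq2 (log2 difference -2.20, adjusted p = 0.0278) and without the filter on low counts (-2.20, adjusted p = 0.0421), was -3.65 without KO337 (adjusted p = 0.104), and over all alternatives the adjusted p ran from 0.0278 to 0.340.

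The level of Rnf43 also differed between the experiments. It had 2.40, 2.58 and 2.81 CPM in IBR libraries and 3.81, 2.23 and 2.53 CPM in CTL libraries, and each of these values was above both WT values. The log2 difference between IBR and CTL was -0.14 with an SE of 0.35 (edgeR adjusted p = 0.948). The difference of the KO and IBR effects was -2.02 (edgeR adjusted p = 0.402). WT and CTL libraries were not compared by a test, since genotype controls and vehicle controls belong to separate experiments.

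Axin2, a scaffold of the complex that degrades beta-catenin and a general readout of Wnt signalling, showed no called difference. It had 5.80 and 2.44 CPM in KO libraries and 2.97 and 6.22 CPM in WT libraries. The values of the groups interleaved, with a log2 difference of -0.16 and an SE of 0.46 (edgeR adjusted p = 0.860). In the drug comparison it had 13.4, 12.3 and 8.86 CPM in IBR libraries and 14.1, 8.71 and 9.83 CPM in CTL libraries. These groups interleaved too (log2 difference 0.08, SE 0.36, edgeR adjusted p = 0.976), and all 6 values were above the WT and KO values.

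Of the 6 tested genes other than Lgr6, edgeR's quasi-likelihood test called 0 in KO against WT, where 2.21% of all tested genes were called. Unadjusted p-values were under 0.05 for Lgr4 and Rnf43, where 25.7% of all tested genes had one, and DESeq2 called Rnf43 alone, where it called 12.1% of all genes. KO lay wholly below WT for the same 2 genes and wholly above WT for none, where 26.9% of all tested genes lay wholly below and 53.2% lay apart in either direction. In IBR against CTL 0 of the 6 were called by edgeR or by DESeq2, and 0 had an unadjusted p under 0.05. Over all 15364 genes edgeR called 0 (0%), and 5.51% had an unadjusted p under 0.05. Groups lay apart for 0 of the 6, against 13.4% of all genes. For the difference of the KO and IBR effects edgeR and DESeq2 called 0 of the 6, with 0.026% of all genes called by edgeR, and Rnf43 alone had an unadjusted p under 0.05, where 9.78% of all genes had one. DESeq2 called 0.931% of all genes for that difference and 0.013% in IBR against CTL.

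The pathway was then followed beyond the members through 11 lists with 98 genes other than Lgr6, of which 73 were tested. In KO against WT, edgeR called 0 of the 73, with 2.21% called over all genes. DESeq2 called 12 (16.4%), with 12.1% called over all genes. An unadjusted p under 0.05 was found for 21 genes (28.8%), near the 25.7% of all genes. The log2 difference was positive for 44 and negative for 29 genes, with a median of 0.11 against 0.01 over all genes. KO lay wholly above WT for 28 genes (38.4%, against 26.3% of all genes) and wholly below for 11 (15.1%, against 26.9%).

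**Figure D3:**
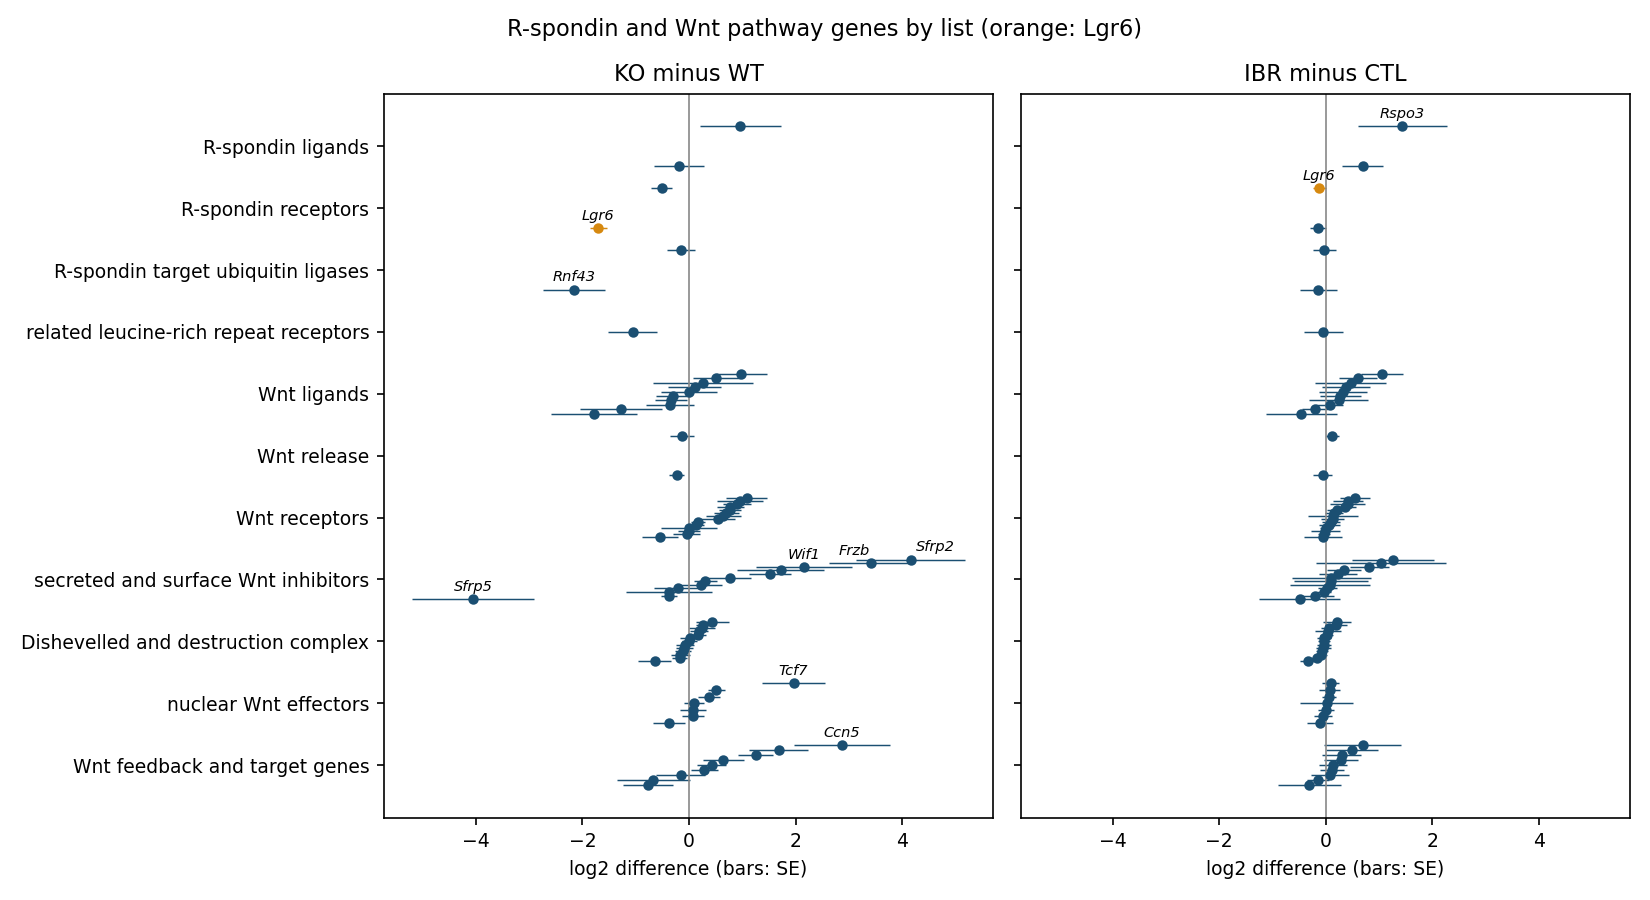
Log2 difference (x axis) with its SE for each tested gene of the 11 lists (y axis, 1 row of points per list), KO minus WT on the left and IBR minus CTL on the right, with Lgr6 in orange. The bar of Lgr6 is no test, since the gene was chosen by these differences. KO minus WT differences run from -4.05 (Sfrp5) to 4.16 (Sfrp2), and IBR minus CTL differences from -0.49 to 1.43 (Rspo3).

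Wnt receptors had mostly positive differences under the KO label. Of 14 tested, 11 were positive and 3 negative, with a median log2 difference of 0.59. An unadjusted p under 0.05 was found for 6 (42.9%, against 25.7% of all genes), KO lay wholly above WT for 9 (64.3%, against 26.3%) and wholly below for 1 (7.14%, against 26.9%). Fzd7, a Frizzled receptor for Wnt proteins and thus of the family that Znrf3 and Rnf43 remove, had 38.8 and 33.7 CPM in KO libraries and 21.9 and 20.5 CPM in WT libraries. The drug experiment had 41.0, 37.4 and 33.7 CPM in IBR libraries and 37.3, 24.8 and 38.5 CPM in CTL libraries, all above both WT values. KO minus WT was 0.77 on the log2 scale with an SE of 0.21 (edgeR adjusted p = 0.0738).

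Fzd2, another Frizzled receptor, showed the same layout. It had 18.5 and 19.5 CPM in KO libraries and 10.6 and 9.74 CPM in WT libraries, without overlap. In the drug experiment it had 17.1, 25.3 and 16.0 CPM in IBR libraries and 17.2, 13.7 and 22.4 CPM in CTL libraries, so the WT libraries were again the lowest. The log2 difference between KO and WT was 0.90 with an SE of 0.27 (edgeR adjusted p = 0.0886). Fzd7 and Fzd2 both passed in DESeq2 and without the filter on low counts.

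Secreted inhibitors held the widest differences, in both directions. Of 12 tested, 8 were positive and 4 negative, with a median log2 difference of 0.53. An unadjusted p under 0.05 was found for 6 (50%, against 25.7% of all genes), KO lay wholly above WT for 6 (50%, against 26.3%) and wholly below for 3 (25.0%, against 26.9%). Frzb, a decoy that binds Wnt proteins outside the cell, had 16.1 and 92.6 CPM in KO libraries and 3.46 and 6.79 CPM in WT libraries. Both KO libraries were above both WT libraries, and KO337 was far above KO26. Its log2 difference of 3.42 had an SE of 0.79 (edgeR adjusted p = 0.0571). It was 4.17 without KO26 and 1.64 without KO337. With all KO and WT libraries kept, the adjusted p ran from 0.00472 in DESeq2, where it passed, to 0.324 in edgeR with only KO and WT libraries.

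Sfrp2, a decoy of the same family made by stromal cells, had 4.06 and 67.8 CPM in KO libraries and 1.78 and 2.26 CPM in WT libraries. KO337 carried most of this difference, although KO26 also lay above both WT libraries. The CTL libraries, of the separate drug experiment, had 3.30, 2.45 and 4.53 CPM. A log2 difference of 4.16 had an SE of 1.03 (edgeR adjusted p = 0.0643). It was 5.06 without KO26 and 0.99 without KO337. With all KO and WT libraries kept, the adjusted p ran from 0.00222 in DESeq2, where it passed, to 0.336 in edgeR with only KO and WT libraries. In the drug experiment Sfrp2 had 7.09, 10.1 and 7.58 CPM in IBR libraries, all above CTL, with a log2 difference of 1.26 and an SE of 0.78 (edgeR adjusted p = 0.824). Summed fibroblast markers were 5438 and 14490 CPM in KO26 and KO337 and 5240 and 4748 CPM in WT35 and WT338, so KO26 lay close to WT35. These markers summed to 4832, 3178 and 5293 CPM in IBR against 2374, 2251 and 3302 CPM in CTL libraries. Their part in these differences was not tested.

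Sfrp1 and Sfrp5, named here after their values were seen, went opposite ways. Sfrp1 had 70.9 and 212 CPM in KO libraries and 48.8 and 49.6 CPM in WT libraries (log2 difference 1.52, SE 0.40, edgeR adjusted p = 0.0693). The Sfrp1 difference was 2.09 without KO26 and 0.51 without KO337, and it was called in DESeq2. Sfrp5 had 1.51 and 0.181 CPM in KO libraries and 16.9 and 9.49 CPM in WT libraries (log2 difference -4.05, SE 1.15, edgeR adjusted p = 0.0862). Sfrp5 varied widely among controls, with 163 CPM in CTL1 and 29.4 and 25.1 CPM in CTL2 and CTL3, and it was called only without CTL1 or in DESeq2.

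**Figure D4:**
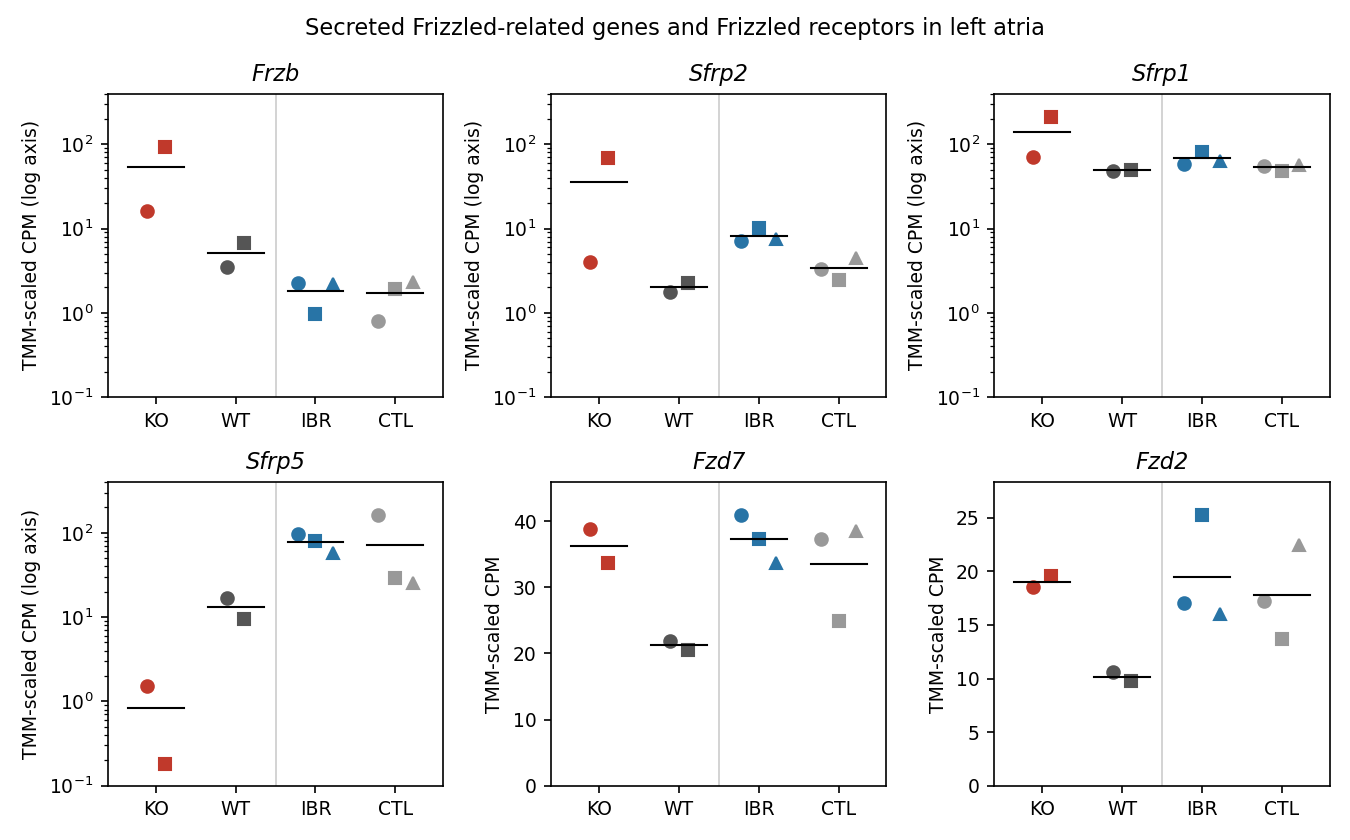
TMM-scaled CPM of 4 secreted Frizzled-related genes (log axes) and of Fzd7 and Fzd2 (linear axes from 0) in each library, by group, with a line at the group mean. Frzb, Sfrp2 and Sfrp1 are highest in KO337 (92.6, 67.8 and 212 CPM), Sfrp5 is lowest there (0.181 CPM), and Fzd7 and Fzd2 are lowest in the WT libraries.

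Wnt ligands and the genes for their release held no gene called by edgeR, where 2.21% of all genes were called in KO against WT. Of 10 tested ligands 5 were positive and 5 negative in KO against WT, with a median of -0.15. Wnt10b had 0.696 and 0.814 CPM in KO libraries and 0.643 and 4.71 CPM in WT libraries, so its log2 difference of -1.79 (edgeR adjusted p = 0.194) rested on WT338 and was 0.22 without it. Wnt5b had 1.16 and 2.67 CPM in KO libraries and 0.890 and 1.07 CPM in WT libraries (log2 difference 0.98, edgeR adjusted p = 0.222). Its difference was 1.43 without KO26 and 0.23 without KO337. Wls, the carrier that takes Wnt proteins to the cell surface, had 191 and 216 CPM in KO libraries against 240 CPM in both WT libraries (log2 difference -0.24, edgeR adjusted p = 0.340, and -0.008 with library size only). Porcn, which adds the lipid that Wnt proteins need for release, had a log2 difference of -0.13 (edgeR adjusted p = 0.735).

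Inside the cell no gene was called by edgeR, where 2.21% of all genes were called in KO against WT. The 13 genes of the Dishevelled and destruction complex list split into 7 positive and 6 negative with a median of 0.01. None had an unadjusted p under 0.05, against 25.7% of all genes. Apc2, a relative of the tumour suppressor Apc, had 12.9 and 5.93 CPM in KO libraries and 12.8 and 16.6 CPM in WT libraries (log2 difference -0.65, edgeR adjusted p = 0.220). Its difference was -1.32 without KO26 and -0.20 without KO337. Of 7 nuclear effectors 6 were positive, with a median of 0.09. Tcf7, a transcription factor of the pathway that T cells also express strongly, had 3.19 and 1.95 CPM in KO libraries and 0.445 and 0.879 CPM in WT libraries (log2 difference 1.96, SE 0.60, edgeR adjusted p = 0.0918), and it passed in DESeq2. Summed T and NK cell markers were 23.2 and 14.4 CPM in KO26 and KO337 and 2.87 and 3.14 CPM in WT35 and WT338, and their part in the Tcf7 values was not tested. Pygo2, a coactivator of beta-catenin, had 19.5 and 22.9 CPM in KO libraries and 15.3 and 14.5 CPM in WT libraries (log2 difference 0.51, edgeR adjusted p = 0.0964). The difference was 0.603 without KO26 and 0.365 without KO337.

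Of the 9 tested feedback and target genes, Axin2 included, 6 were positive and 3 negative in KO against WT, with a median of 0.43. An unadjusted p under 0.05 was found for 3 (33.3%, against 25.7% of all genes). KO lay wholly above WT for 6 (66.7%, against 26.3%) and wholly below for 1 (11.1%, against 26.9%). Cd44, a hyaluronan receptor found on immune and stromal cells, had 60.7 and 113 CPM in KO libraries and 30.6 and 42.7 CPM in WT libraries (log2 difference 1.25, SE 0.33, edgeR adjusted p = 0.0678). Its difference was 1.62 without KO26 and 0.71 without KO337. Ccn5, a secreted matrix-associated protein, had 18.2 and 91.0 CPM in KO libraries and 4.30 and 10.8 CPM in WT libraries (log2 difference 2.87, SE 0.90, edgeR adjusted p = 0.102). Its difference was 3.59 without KO26 and 1.27 without KO337. Nkd2, named after its values were seen, had 3.83 and 10.7 CPM in KO libraries against 2.32 and 2.20 CPM in WT libraries. Its log2 difference was 1.68 with an SE of 0.56 (edgeR adjusted p = 0.107). Cd44, Ccn5 and Nkd2 were called in DESeq2, where 12.1% of all tested genes were called. These genes were highest in KO337, which also had the highest fibroblast and macrophage sums. Axin2 was lowest in KO337. The part of these cell markers in the target gene differences was not tested.

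In IBR against CTL, edgeR and DESeq2 called 0 of the 73 pathway genes, and 2 had an unadjusted p under 0.05 (2.74%, against 5.51% of all genes). These were Wnt4 and Apcdd1, named after their values were seen. Wnt4 had 2.34, 1.55 and 1.71 CPM in IBR libraries and 0.512, 0.864 and 1.33 CPM in CTL libraries, without overlap, and a log2 difference of 1.05 (edgeR adjusted p = 0.823). Apcdd1, a surface inhibitor of Wnt signalling, had 10.5, 9.76 and 11.5 CPM in IBR libraries and 4.04, 3.31 and 10.6 CPM in CTL libraries (log2 difference 0.82, edgeR adjusted p = 0.823). IBR lay wholly above CTL for 3 of the 73 genes and wholly below for 1, against 5.91% and 7.53% of all genes. For the difference of the KO and IBR effects edgeR called 0 of the 73, 11 had an unadjusted p under 0.05 (15.1%, against 9.78% of all genes), and DESeq2 called 0.

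Genes whose log2 CPM followed that of Lgr6 most closely over the 10 libraries were taken from 11846 tested genes. The highest Pearson correlations were those of Sh3gl2 (0.985), Tigd2 (0.964), Igfbpl1 (0.954), Atp8a2 (0.954), Klhl41 (0.952) and Fbxo3 (0.952). The lowest were those of Cd52 (-0.965), Psd4 (-0.961) and Lacc1 (-0.960). The libraries share groups, depth and composition, so these values describe the pattern only.

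The sizes of the KO differences varied widely among these genes. Sh3gl2 had 0.580 and 0.362 CPM in KO libraries against 6.23 and 4.40 CPM in WT libraries, and Klhl41, a gene of striated muscle, had 89.7 and 63.3 CPM against 233 and 188 CPM. Tigd2 had 24.4 and 22.8 CPM in KO libraries against 30.6 and 29.4 CPM in WT libraries, a far smaller step with as close a correlation. Cd52, a surface protein of lymphocytes and monocytes, had 13.8 and 18.6 CPM in KO libraries against 1.38 and 0.754 CPM in WT libraries. Among the pathway genes the highest correlations with Lgr6 were those of Sfrp5 (0.857), Kremen1 (0.848) and Lgr4 (0.802), and the lowest were those of Frzb (-0.864), Cd44 (-0.858) and Nkd2 (-0.824). Of the other members, Axin2 had a correlation of 0.542, Znrf3 of 0.478 and Rspo1 of 0.295.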

How the data were processed

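Per the labels' protocols, poly(A)+ RNA was sequenced with a directional kit. The deposited values are raw read counts per gene, 1 table per library, from the authors' pipeline; the submitters' processing notes name STAR, HTSeq, edgeR and the build mm9, without versions. Per the file names, counting ignored strand, so antisense or overlapping genes cannot be told apart. The 5 unassigned rows were left out (no feature 13.5% to 19.9%, ambiguous 3.14% to 3.99%, not unique 11.8% to 27.4% of records). Symbols were matched for 87.4% of rows.

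The analysis of counts used R 4.3.3 with edgeR 4.0.16 and limma 3.58.1. Low genes were removed by filterByExpr (minimum count 10, minimum total 15), and scaling was by TMM. A single robust quasi-likelihood fit with group means over all 10 libraries left 6 residual degrees of freedom. P-values were adjusted by Benjamini-Hochberg over 15364 genes, and called means an adjusted p under 0.05. The SE is the absolute log2 difference over the square root of F. Exon lengths came from GENCODE vM21 and start windows from RefSeq, both on GRCm38, not on mm9; 5 members had a window, and Lgr5, Rspo3 and Znrf3 had none. Floors of 3 counts cover counting error only.

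All members and lists were chosen with earlier results of these data known. Named were all members and R-spondin list genes, every called gene and the 2 genes with the smallest p in KO against WT of each other list, and the 6 highest and 3 lowest correlations with Lgr6 (average log2 CPM of 1 or more). The alternatives were RLE scaling, library size only, no filter, DESeq2 1.42.0, only the 2 groups compared, a replicate block, and leaving out each library.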

Additional observations from a re-analysis of the deposited data

Results flagged for a closer look

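Dvl1, a Dishevelled gene that carries the signal from Frizzled receptors, was picked after the values were seen. Its effects differed in direction between the experiments, as did those of other pathway genes such as Sfrp5 and Rspo1. It had 53.6 and 64.7 CPM in the libraries labelled KO and 48.8 and 49.4 CPM in WT libraries, both KO values being above both WT values. In the drug experiment it had 56.9, 59.5 and 55.0 CPM in IBR libraries and 63.3, 67.8 and 62.2 CPM in CTL libraries, every IBR value being below every CTL value. Of all tested genes, 26.3% lay wholly above WT in KO and 7.53% wholly below CTL in IBR. The difference of the log2 effects was 0.44 (edgeR adjusted p = 0.458), which did not pass the test.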

How the results depend on the processing

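Lgr6, chosen for this difference, stayed lower in KO than in WT under every setting run, which is a description and no test. Its log2 difference was -1.48 with library size only, -0.84 relative to the cardiomyocyte markers (added after seeing the data), and -1.77 to -1.65 when each library was left out. In IBR against CTL it was 0.03 relative to these markers and -0.20 to -0.05 when each library was left out. Library size only moved the median log2 difference of all genes in KO against WT to 0.23, against 0.01 with TMM, and the calls over all genes to 294 higher and 66 lower, against 201 and 138. In KO against WT, 0 of the 73 pathway genes were called with TMM, 4 without the filter (Dkk2, Fzd2, Fzd7 and Rnf43), 12 by DESeq2, and 0 to 23 when each library was left out, 23 of them without KO26 and 1 (Sfrp5) without CTL1. Over all genes the KO against WT calls were 902 higher and 956 lower in DESeq2, 467 and 679 without the filter, 1831 and 2103 without KO26, 34 and 21 without KO337, 1 and 13 without WT35, 2 and 19 without WT338, 8 and 11 without IBR3, 56 to 98 higher and 38 to 65 lower without each of CTL1, CTL2, CTL3, IBR1 and IBR2, and 0 when only KO and WT libraries entered. The difference of effects gave 0 pathway calls in every setting that kept both KO and both WT libraries, and IBR against CTL gave 0 throughout.

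Some differences changed sign. With library size only, Rspo1 was 0.019, Znrf3 0.068, Porcn 0.098 and Axin2 0.05 in KO against WT, and Znrf3 0.044 in IBR against CTL; without the filter Znrf3 was 0.009 there. Leaving out each library gave ranges in KO against WT of -1.07 to 0.39 for Rspo1, -0.67 to 1.66 for Rspo3, -0.45 to 0.20 for Znrf3, -2.63 to 0.22 for Wnt10b, -0.404 to 0.058 for Porcn and -0.91 to 0.45 for Axin2. In IBR against CTL they were -0.214 to 0.083 for Znrf3, -0.29 to 0.12 for Rnf43 and -0.052 to 0.314 for Axin2. The cause was not tested. With the replicate number as a block in CTL and IBR, Lgr6 was -1.70 and -0.12 and the pathway counts were 0. Deviations of same-numbered libraries correlated at 0.0159, 0.162 and 0.0321, and those of differently numbered ones at -0.197 to 0.182. With so few libraries this check cannot tell whether the numbers pair them. WT and KO share no numbers. With the block, 7 higher and 10 lower genes were called in KO against WT. Rnf43, Lgr5, Rspo2 and Rspo3 are limited by depth, and each group has only 2 or 3 libraries.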
